A study of Mus musculus with 6 samples.

Results

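Gata4, Gata5, Gata6, Mef2a, Mef2c, Mef2d, Hand1, Hand2, Nkx2-5 and Isl1 encode the core transcription factors of heart formation. They were taken by name, with no measured value used, from a table of 31529 genes, and each of the 10 was present once and passed the filter on low counts. The samples were hearts of wild-type (WT) mice of the ICR stock, which is outbred. Of the libraries, 3 came from embryonic day 16.5 (E16.5) and 3 from embryonic day 18.5 (E18.5). The labels name no transgene and no treatment, and they state neither sex nor litter. The comparison asks how heart gene expression differed between these stages late in gestation. The design text calls the libraries of a stage biological replicates, without saying whether a library holds 1 heart or a pool.

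GATA factors are zinc-finger proteins that bind GATA sites in the control regions of myocardial, endocardial and epicardial genes. MEF2 factors are MADS-box proteins that activate muscle genes and are held in check by class IIa histone deacetylases. HAND proteins are basic helix-loop-helix factors known for their roles in the ventricles and the outflow tract. Nkx2-5 is a homeodomain protein that binds DNA together with GATA and T-box factors, and Isl1 is a LIM-homeodomain protein of cardiac progenitors that persists in the sinoatrial node. All of these genes are switched on early in heart formation, long before the stages sampled here.

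Estimated counts summed to between 61443414 and 77237333 a library. Genes of the mitochondrial chromosome took 19.9% to 41.4% of the counts at E16.5 and 25.2% to 33.5% at E18.5, so stages were compared on CPM, counts per unit of library size after scaling by the trimmed mean of M-values (TMM). The heart label was matched by its markers: the 8 cardiomyocyte genes summed to 28885 to 36993 CPM at E16.5 and 33464 to 40395 CPM at E18.5, with overlap, and to 4043 to 5509 FPKM and 5633 to 6277 FPKM, without overlap. Among all cell type markers tested, 1 gene, the epicardial keratin gene Krt19, passed the adjusted threshold (11.4 and 26.7 CPM, log2 difference 1.23, edgeR adjusted p = 0.0219). The 5 epicardial genes summed to 85.8 to 99.2 CPM at E16.5 and 142 to 193 CPM at E18.5, and the 4 smooth muscle genes to 462 to 546 CPM and 684 to 742 CPM. The 6 fibroblast genes summed to 1205 to 2050 CPM at E16.5 and 2116 to 2774 CPM at E18.5, without overlap for these 3 lists, although the fibroblast sums overlapped by FPKM. The neuron markers given below also had higher CPM sums at E18.5 without overlap. The 3 Schwann cell genes had lower sums, 21.1 to 26.4 CPM at E16.5 and 18.1 to 18.8 CPM at E18.5, but overlapped by FPKM. Sftpc, the surfactant protein gene of lung epithelium, held 2236 to 4362 counts in every library. The other 5 lung and foregut markers held at most 196 counts, and whether the Sftpc RNA came from neighbouring lung was not tested. The part of epicardial, smooth muscle, fibroblast, neuron, Schwann and any lung cells in the values below was not tested. In bulk heart RNA, fewer cells of a type and less RNA per cell cannot be told apart.

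Levels of different genes were set side by side as deposited FPKM (fragments scaled to exon length and library size). Nkx2-5 led with a mean of 76.6 FPKM over 6 libraries (62.1 to 93.2). Hand2 followed at 36.7 FPKM (33.4 to 44.1), above its next neighbour Gata4 in 6 of 6 libraries. Gata4 at 24.4 FPKM, Gata6 at 22.3, Mef2d at 18.6 and Mef2a at 17.5 had overlapping ranges from each gene to the next. A wide gap separated these 6 genes from Mef2c at 2.13 FPKM, Gata5 at 1.86 and Hand1 at 1.54, whose ranges overlapped in turn. Isl1 was lowest at 0.225 FPKM (0.121 to 0.386).

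That order depends on the length used. The length behind FPKM tracked the joint length of all annotated exons: in 96.1% of 11338 well-counted genes, the ratio of both lengths lay within 1% of its median in each library. Mef2a has 14681 bases of annotated exon over 12 transcripts, but its longest transcript has 5538 bases, and the corresponding lengths for Mef2c are 15715 and 6277. Per length of the longest transcript, Mef2a moved from rank 6 to rank 2 at a mean of 46.5, above Gata6 at 38.3, Hand2 at 36.7 and Gata4 at 28.1 on the same scale, with ranges that again overlapped from each gene to the next. Mef2c was at 5.32 on that scale and kept rank 7, while Nkx2-5 stayed first at 86.3. Nkx2-5 was thus the most abundant factor on both scales, and Mef2c stood below Mef2a and Mef2d on both.

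None of the 10 factors passed the adjusted threshold between the stages (edgeR quasi-likelihood, adjusted p under 0.05), where 0.15% of all 19959 genes tested did (0.0952% higher and 0.0551% lower at E18.5). At an unadjusted p under 0.05, 2 of the 10 passed, Gata5 and Nkx2-5, both lower at E18.5, where 4.7% of all genes were lower and 4.83% higher at that level. The number of factors at that level was 4 without E16.5 replicate 2 and 5 with the mitochondrial share as a term. It was 1 with total count scaling, with limma and without E16.5 replicate 1 or E18.5 replicate 2. The share of all genes at that level was not counted in these fits. Genes passing the adjusted threshold over the whole table also shifted, from 19 higher and 11 lower in the main fit. They numbered 250 and 121 without E16.5 replicate 2, 129 and 55 with the mitochondrial share, and 7 and 5 with total count scaling. With DESeq2's Wald test, 1 factor, Gata5, passed the adjusted threshold, where 243 higher and 160 lower genes of all 19959 did. The mean was lower at E18.5 for 8 of the 10 and higher for Mef2c and Mef2d, with a median log2 difference of -0.24 over the 10 against -0.0019 over all genes tested, of which 50.2% were lower. All 3 libraries of E18.5 lay below all 3 of E16.5 for Gata5, Mef2a and Nkx2-5, and above them for Mef2d. Such a separation was found downward in 8.02% and upward in 8.45% of all genes tested.

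**Figure D1:**
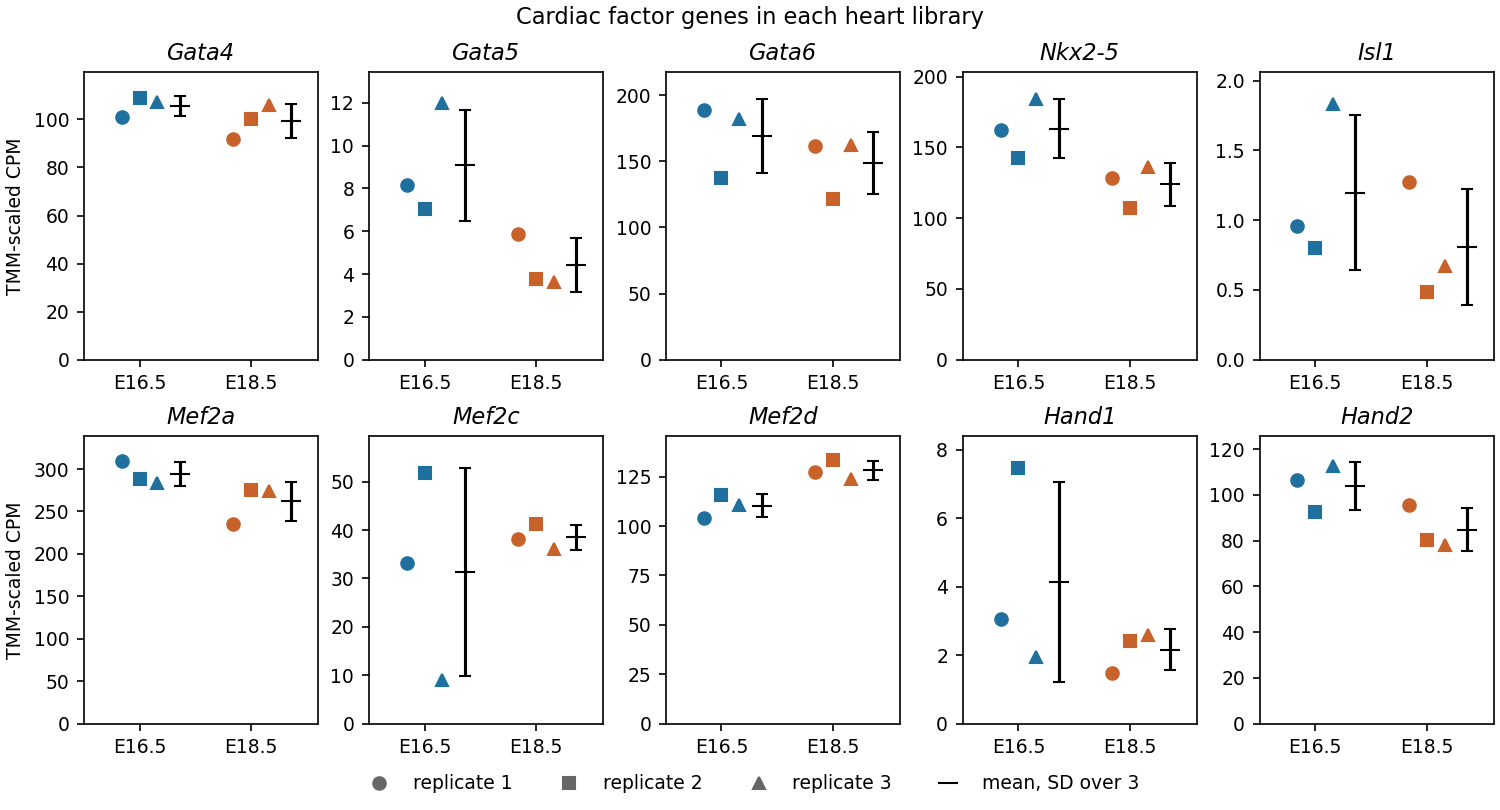
TMM-scaled CPM of the 10 cardiac factor genes in each library (symbols by replicate number, blue for E16.5, orange for E18.5, each panel from 0), with the mean and SD of 3 libraries in black. The stages do not overlap for Gata5, Mef2a, Nkx2-5 and Mef2d, and single E16.5 libraries stand apart for Mef2c (8.96 CPM in replicate 3) and Hand1 (7.47 CPM in replicate 2).

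Among the GATA genes, Gata4 and Gata6 had similar levels by deposited FPKM, and Gata5 was scarce. Gata4 (ENSMUSG00000021944, GRCm38 chromosome 14, 63198922 to 63271692) is needed for growth of the myocardium. It measured 101, 109 and 107 CPM in E16.5 replicates 1 to 3 and 91.8, 100 and 106 CPM in E18.5 replicates 1 to 3. The stages overlapped and the log2 difference, E18.5 minus E16.5, was -0.09 ± 0.12 (SE), with a 95% interval of -0.37 to 0.19 and an edgeR adjusted p of 0.835.

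Gata6 (ENSMUSG00000005836, chromosome 18, 11052064 to 11085635), which overlaps with Gata4 in function in the myocardium, measured 189, 137 and 182 CPM at E16.5 and 162, 122 and 162 CPM at E18.5. Replicate 2 was the lowest library at both stages, and the stages overlapped. The log2 difference was -0.19 ± 0.18 (SE), with an edgeR adjusted p of 0.758. Its noncoding neighbour Gata6os, on the other strand, shares 93 exon bases with it and held 11.8% to 14.7% as many counts.

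Gata5 (ENSMUSG00000015627, chromosome 2, 180325133 to 180334699), known for its role in the endocardium and the aortic valve, had the largest log2 difference of the 10. It measured 8.18, 7.06 and 12.0 CPM at E16.5 and 5.88, 3.78 and 3.64 CPM at E18.5. Each E18.5 library lay below each E16.5 library, and E16.5 replicate 3 was the highest. The means were 9.08 ± 2.58 and 4.44 ± 1.25 CPM (SD, n = 3), a log2 difference of -1.03 ± 0.28 (SE) with a 95% interval of -1.68 to -0.39. It failed the correction in edgeR (unadjusted p = 0.00576, adjusted p = 0.294) and passed in DESeq2 (adjusted p = 0.0333). DESeq2 called 243 genes higher and 160 lower over the whole table, against 19 and 11 in edgeR. Without E16.5 replicate 3 the log2 difference was -0.79, and leaving out any other library gave -0.91 to -1.297. The antisense gene Gata5os shares 258 exon bases with Gata5 and held 0 to 23 counts a library.

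Within the GATA trio, shares of the summed FPKM do not depend on how libraries are scaled. Gata4 took 48.7% ± 5.14 (SD, n = 3) at E16.5 and 51.4% ± 4.77 at E18.5, and Gata6 took 46.4% ± 4.77 and 45.9% ± 4.33. These near-equal shares depend on the length used. Per length of the longest transcript, Gata4 took 39.8% ± 4.98 and 42.0% ± 4.62, and Gata6 56.7% ± 4.77 and 56.0% ± 4.36. By deposited FPKM, the share of Gata5 was small. Gata5 took 4.92% ± 1.11 at E16.5 and 2.73% ± 0.762 at E18.5, with no overlap between the stages (4.21% to 6.20% against 2.09% to 3.57%). The exact two-sided permutation p for the Gata5 share was 0.1, the smallest that 3 against 3 can give. Of the other GATA genes, Gata2, a factor of endothelial and blood progenitor cells, had means of 24.0 CPM (E16.5) and 28.2 CPM (E18.5). Gata3, a factor of lymphoid and sympathetic cells, had means of 1.67 and 0.923 CPM, and Gata1, the erythroid factor, held 0 to 39 counts a library. Of these 3 genes, 0 passed in edgeR, adjusted or at an unadjusted p under 0.05.

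Nkx2-5 (ENSMUSG00000015579, chromosome 17, 26838664 to 26845009) measured 163, 143 and 184 CPM at E16.5 and 129, 107 and 136 CPM at E18.5. All E18.5 libraries lay below all E16.5 libraries, the nearest pair being 136 and 143 CPM. The means were 163 ± 20.7 and 124 ± 15.1 CPM (SD, n = 3), a log2 difference of -0.40 ± 0.16 (SE) with a 95% interval of -0.75 to -0.04. It failed the correction (edgeR, unadjusted p = 0.0324, adjusted p = 0.471). In 4 of 6 edgeR fits with 1 library left out, the unadjusted p was above 0.05, and it ranged from 0.00803 without E16.5 replicate 2 to 0.136 without E18.5 replicate 2.

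Isl1 (ENSMUSG00000042258, chromosome 13, 116298281 to 116309689) was scarce, with 34 to 126 counts a library. It measured 0.957, 0.801 and 1.84 CPM at E16.5 and 1.28, 0.483 and 0.669 CPM at E18.5, and the stages overlapped. The log2 difference was -0.56 ± 0.52 (SE), with a 95% interval of -1.76 to 0.63 and an edgeR adjusted p of 0.747, and without E16.5 replicate 3 it was -0.13. That interval includes 0 as well as -1. Genes of autonomic neurons, which also use Isl1 and Hand2, were present at low levels, with 7 markers summing to 4.61 to 6.26 CPM at E16.5 and 7.99 to 14.6 CPM at E18.5, and their part in the Isl1 values was not tested.

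Of the MEF2 genes, Mef2a and Mef2d were abundant and Mef2c was scarce and uneven. Mef2a (ENSMUSG00000030557, chromosome 7, 67231163 to 67372858), which is needed in the postnatal heart, measured 310, 288 and 284 CPM at E16.5 and 236, 275 and 274.3 CPM at E18.5. Mef2d (ENSMUSG00000001419, chromosome 3, 88142372 to 88172086), the family member linked to stress remodelling in the heart, measured 104, 116 and 111 CPM at E16.5 and 127, 133 and 124 CPM at E18.5. The stages did not overlap for either gene, with Mef2a lower and Mef2d higher at E18.5. The log2 differences were -0.17 ± 0.14 (SE) for Mef2a (edgeR adjusted p = 0.713) and 0.22 ± 0.12 for Mef2d (edgeR adjusted p = 0.601), and neither passed.

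The ratio of the Mef2a count to the Mef2d count, which needs no scaling between libraries, was 2.97, 2.49 and 2.57 in E16.5 replicates 1 to 3 and 1.85, 2.07 and 2.22 in E18.5 replicates 1 to 3. Its mean went from 2.68 ± 0.260 to 2.04 ± 0.183 (SD, n = 3) with no overlap, and the exact two-sided permutation p was 0.1, the smallest possible. By deposited FPKM, Mef2a made up 49.6% ± 2.84 of the trio at E16.5 and 42.7% ± 2.24 at E18.5, and Mef2d 45.6% ± 2.65 and 51.4% ± 1.96. Per length of the longest transcript the shares of Mef2a were 67.7% ± 3.53 and 61.2% ± 2.21, so the leading family member at E18.5 depends on the length used, while the lower Mef2a share at E18.5 does not. This ratio was chosen with the values of both genes known. Lysmd4 shares 302 exon bases with Mef2a on the other strand and 1700113A16Rik 531 with Mef2d, and they held 3.24% and 0.298% as many counts.

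**Figure D2:**
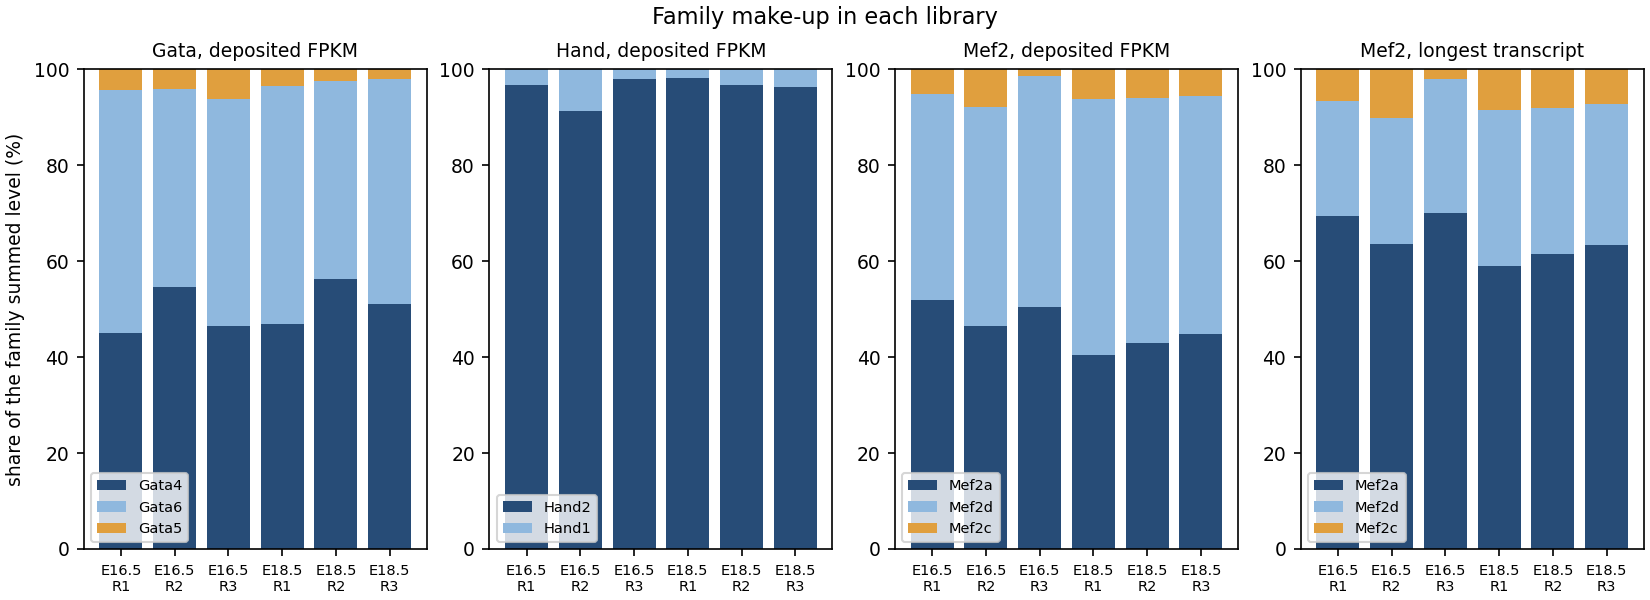
Share of each gene in the summed level of its family (y axis, %) in each of 6 libraries (R1 to R3, replicates 1 to 3), for Gata, Hand and Mef2 by deposited FPKM and for Mef2 again per length of the longest transcript. Mef2a takes a smaller share in every E18.5 library than in any E16.5 library on both scales, and Hand2 takes over 90% of the Hand pair throughout.

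The promoter of Mef2a is shown because it holds the consensus MEF2 site, which 0.557% of 32851 RefSeq promoter windows of the same length hold on either strand. The window runs from 250 bases before to 50 after the RefSeq start (GRCm38.p6, minus strand, chr7:67372809-67373108), and the capitals mark the site, which begins at -2 from the start.
Mef2a: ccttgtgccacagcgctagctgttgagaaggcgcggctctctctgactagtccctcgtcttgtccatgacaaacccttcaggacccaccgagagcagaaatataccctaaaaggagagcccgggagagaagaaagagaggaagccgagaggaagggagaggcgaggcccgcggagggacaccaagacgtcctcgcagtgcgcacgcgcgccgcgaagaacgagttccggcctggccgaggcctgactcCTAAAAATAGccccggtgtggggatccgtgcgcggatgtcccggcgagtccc
The match is a description of letters. The table holds 9 windows for 7 of the 10 factors, and 1 of the 9 has this site.

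Mef2c (ENSMUSG00000005583, chromosome 13, 83504034 to 83667080), the family member needed for looping and right ventricle formation, was uneven at E16.5. It measured 33.2, 51.8 and 8.96 CPM in E16.5 replicates 1 to 3 (2082, 4202 and 615 estimated counts) and 38.1, 41.3 and 36.1 CPM at E18.5. The E16.5 libraries bracketed the E18.5 libraries, and replicate 3 stood at 0.27 of the next lowest library. The 5.78-fold range within E16.5 was matched or exceeded by 0.686% of 11232 genes with a mean of at least 5 CPM, against a median range of 1.37-fold. The log2 difference was 0.30 ± 0.49 (SE), with an interval of -0.82 to 1.42 and an edgeR adjusted p of 0.864. Without E16.5 replicate 3 it was -0.15, the opposite sign, and without E16.5 replicate 2 it was 0.87. No direction can be read for Mef2c. The gene has 31 annotated transcripts and 3 RefSeq start sites in the table, which the deposited gene counts do not separate. The remaining family member, Mef2b, had means of 1.502 CPM (E16.5) and 1.14 CPM (E18.5).

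**Figure D3:**
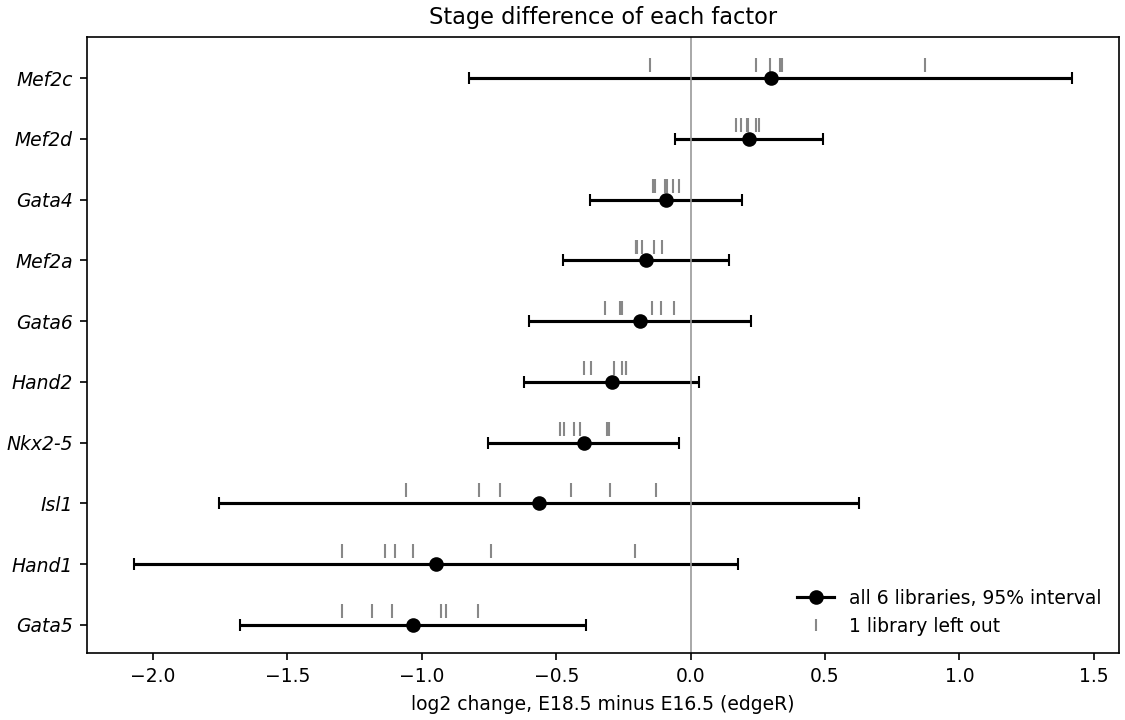
Log2 difference, E18.5 minus E16.5, of each factor with its 95% interval from the edgeR fit on all 6 libraries (black), and the estimates with 1 library left out (grey ticks above). The intervals of Gata5 and Nkx2-5 lie below 0 before correction, and the ticks of Mef2c lie on both sides of 0.

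Of the HAND pair, Hand2 was abundant and Hand1 scarce in these late hearts. Hand2 (ENSMUSG00000038193, chromosome 8, 57320983 to 57324633), the factor of the right ventricle and outflow tract, measured 107, 92.4 and 113 CPM at E16.5 and 95.7, 80.4 and 78.2 CPM at E18.5. Only E18.5 replicate 1 lay above the lowest E16.5 library. The log2 difference was -0.29 ± 0.14 (SE), with an interval of -0.62 to 0.03 and an edgeR adjusted p of 0.553. Hand2 took 95.4% ± 3.57 (SD, n = 3) of the pair's FPKM at E16.5 and 97.0% ± 1.06 at E18.5, and this difference of 1.67 points was -0.35 points without E16.5 replicate 2.

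Hand1 (ENSMUSG00000037335, chromosome 11, 57828705 to 57832818), the factor of the left ventricle and of the placenta, measured 3.05, 7.47 and 1.94 CPM at E16.5 and 1.47, 2.40 and 2.59 CPM at E18.5. E16.5 replicate 2 stood 2.45-fold above the next library, with 606 counts against 98 to 191 in the others. The log2 difference was -0.95 ± 0.49 (SE) with an edgeR adjusted p of 0.573, and without E16.5 replicate 2 it was -0.21. The lower Hand1 mean at E18.5 thus rests largely on 1 library, which also had the lowest mitochondrial share, 19.9%. With the mitochondrial share as a term the log2 difference was -1.09 (edgeR adjusted p = 0.174), and with mitochondrial genes removed it was -0.96.

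Hand2 shares its promoter with Hand2os1 (also called upperhand), a long noncoding RNA read in the other direction that is known to act on Hand2. The RefSeq starts lie 124 bases apart, and 461 exon bases, 19.6% of the exons of Hand2, are also exons of Hand2os1 on the other strand. The shared promoter is given from the Hand2 side (GRCm38.p6, plus strand, chr8:57320733-57321032), with matches on either strand in capitals: GATAA, the core of many GATA sites, and the NKX2-5 core AAGTG.
Hand2: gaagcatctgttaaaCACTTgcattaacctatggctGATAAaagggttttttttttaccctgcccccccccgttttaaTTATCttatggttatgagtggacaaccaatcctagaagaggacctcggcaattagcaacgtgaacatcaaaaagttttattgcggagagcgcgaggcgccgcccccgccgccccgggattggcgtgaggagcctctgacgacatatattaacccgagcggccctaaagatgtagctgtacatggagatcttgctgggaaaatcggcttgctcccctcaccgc
From the Hand2 start, GATAA begins at -214 and -172, and 5.27% of all windows hold at least 2 of them. The NKX2-5 core begins at -235, and 46.4% of all windows hold it.

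Hand2os1 (ENSMUSG00000100510, chromosome 8, 57281117 to 57324233) measured 187, 148 and 150 CPM at E16.5 and 152, 150 and 207 CPM at E18.5, with overlapping stages. Its count was 1.75, 1.601 and 1.33 times that of Hand2 in E16.5 replicates 1 to 3 and 1.59, 1.87 and 2.64 times in E18.5 replicates 1 to 3. The means of that ratio were 1.56 ± 0.216 and 2.03 ± 0.544 (SD, n = 3), which overlapped, with an exact two-sided permutation p of 0.3. The library kit marks strand, but the labels do not say whether the counting used it, so it is unknown to which gene reads of the shared exons went. With the counts of both genes summed, the log2 difference was -0.06 (edgeR adjusted p = 0.911). Hand2os1 held 175% as many counts as Hand2, and 3.59% of its exon bases are exons of Hand2. The sum is thus mostly Hand2os1 and cannot tell where reads of the shared exons went.

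**Figure D4:**
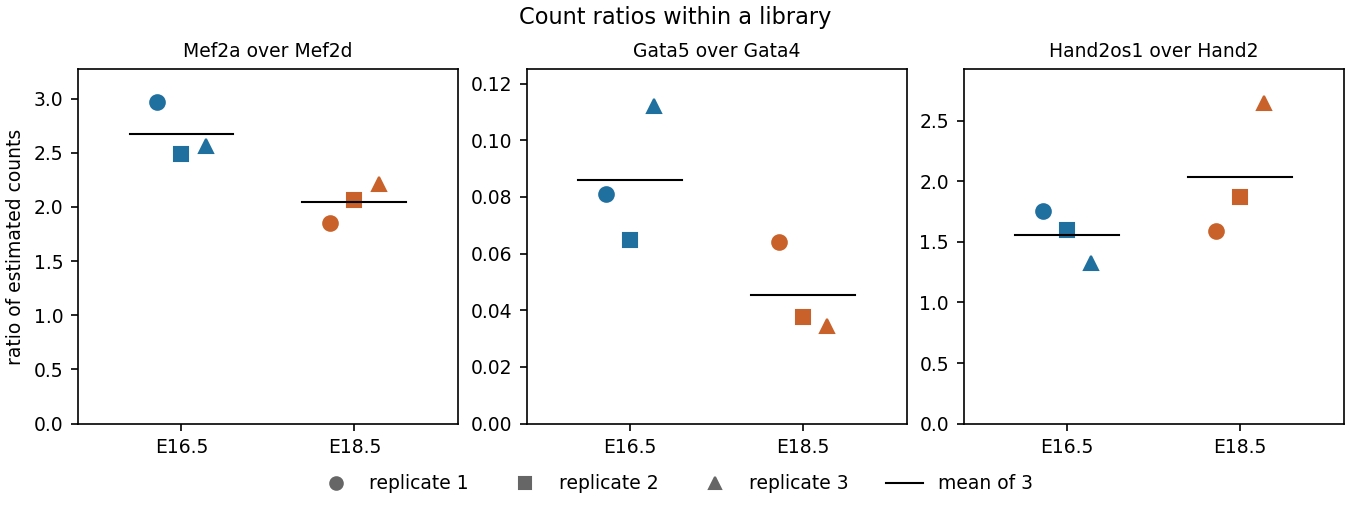
Ratio of estimated counts within a library (y axis from 0) for Mef2a over Mef2d, Gata5 over Gata4 and Hand2os1 over Hand2, by stage, with symbols by replicate number and the mean of 3 as a line. The stages do not overlap for Mef2a over Mef2d, nearly touch for Gata5 over Gata4 and overlap for Hand2os1 over Hand2.

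Of the genes for cofactors, partners and regulators of these proteins, none in the lists below passed the adjusted threshold in edgeR. Of 12 GATA cofactors and chromatin partners, 10 had a lower mean at E18.5 and 2 a higher one, with a median log2 difference of -0.19, and 0 of 12 passed in edgeR, adjusted or at an unadjusted p under 0.05. The FOG proteins Zfpm1 (-0.30) and Zfpm2 (-0.27), which bind GATA4 and modulate it, were among those with the smallest p, beside the acetyltransferase gene Crebbp (-0.24) and the demethylase gene Kdm6b (-0.26). Of 18 MEF2 regulators and partners, 9 were higher and 9 lower, with a median of -0.0037. The class IIa deacetylase gene Hdac5 had means of 170 CPM (E16.5) and 111 CPM (E18.5; log2 difference -0.62, edgeR adjusted p = 0.348), and the kinase gene Prkd1, whose product drives such deacetylases out of the nucleus, at 8.46 and 5.30 CPM (-0.67, adjusted p = 0.321). Both were separated between the stages and failed the correction. The other class IIa genes of the list had log2 differences of 0.15 (Hdac4), 0.11 (Hdac7) and -0.48 (Hdac9), and each overlapped between the stages. Mapk14, a kinase that activates MEF2, was at 0.32 and the scaffold gene Akap6 at 0.46 (log2 differences). The cofactors Myocd (0.21) and Srf (0.15) did not pass.

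Among 12 partners of HAND and related basic helix-loop-helix factors, 5 were higher and 7 lower, and 5 had an unadjusted p under 0.05, where 9.53% of all genes did, with 0 passing the adjusted threshold in edgeR. These were Twist1 (13.2 to 8.58 CPM, log2 difference -0.62), the E-protein gene Tcf3 (195 to 119 CPM, -0.71), the LIM-only gene Fhl2 (0.55), the inhibitor Id3 (0.38) and the scarce Twist2 (0.372 to 1.3003 CPM, 1.80). Tcf3 encodes a dimer partner of the HAND and TWIST proteins, but not the only one. Tcf4 and Tcf12, in the same list, had log2 differences of -0.10 and -0.22. Of 18 partners of NKX2-5 and ISL1, 17 were in the table and 16 were tested, 8 higher and 8 lower, with 0 passing in edgeR and 1, Ssbp3, at an unadjusted p under 0.05. The T-box partners Tbx5 (0.02) and Tbx20 (0.01) had log2 differences near 0, and Ssbp3, a component of LIM-domain complexes, was at -0.46 (edgeR adjusted p = 0.438), beside Csrp3 (0.31), Jarid2 (-0.19) and Hipk2 (-0.73). Of 9 other genes of early progenitors, 7 were tested, 2 higher and 5 lower, with 0 passing in edgeR, adjusted or at an unadjusted p under 0.05. Fgf8 had means of 0.941 CPM (E16.5) and 0.199 CPM (E18.5), and Fgf10 and Lhx2 were at or below 0.906 CPM at both stages.

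**Figure D5:**
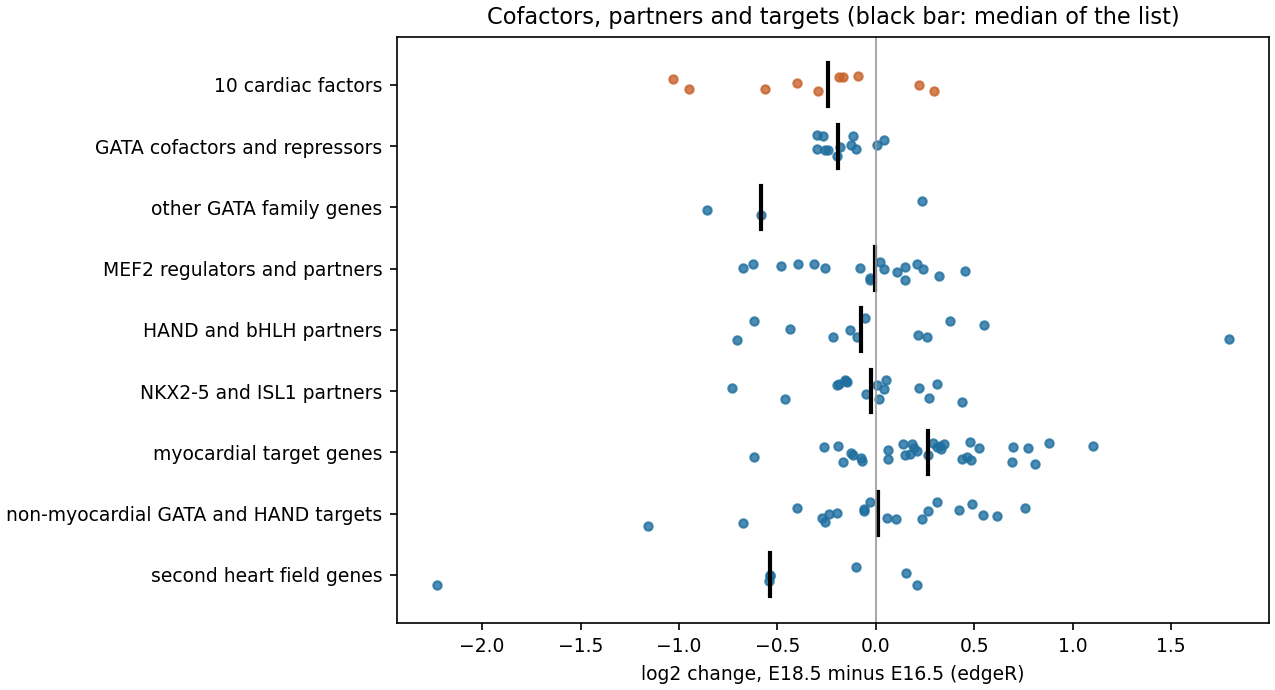
Log2 difference, E18.5 minus E16.5 (x axis), of each tested gene in the lists of cofactors, partners and targets, with the 10 factors in orange and the median of each list as a black bar. The medians of the 10 factors (-0.24) and of their myocardial targets (0.26) lie on opposite sides of 0.

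The median of the genes that these factors are known to regulate in the myocardium lay on the other side of 0 from that of the factors. Of 33 such targets, 25 had a higher and 8 a lower mean at E18.5, where 9937 of all 19959 genes tested were higher. Their median log2 difference was 0.26, and 0 passed the adjusted threshold in edgeR. At an unadjusted p under 0.05, 7 were higher and 1, the pacemaker channel gene Hcn4, was lower, where 4.83% of all genes were higher and 4.7% lower at that level. Nppa (1.10), Bmp10 (0.88), the ryanodine receptor gene Ryr2 (0.53) and the calcium pump gene Atp2a2 (0.77) had the smallest p. Many of these genes are also markers of cardiomyocytes, and 7 of the 33 are among the 8 cardiomyocyte markers counted above, of which 7 were higher and 1 lower, with a median of 0.29. The 6 atrial markers, 2 of them also targets, had 5 higher and 1 lower and a median of 0.64, with 3 at an unadjusted p under 0.05. They summed to 1088 to 1573 CPM at E16.5 and 1383 to 2081 CPM at E18.5, with overlap. By FPKM, which is not TMM-scaled, they summed to 918 to 1470.8 at E16.5 and 1471.5 to 2056 at E18.5, so the stages nearly touched. Nppa and Bmp10 are themselves atrial genes. The part of atrial tissue and of cardiomyocyte number in the target values was not tested. Of 20 targets outside the myocardium, 10 were higher and 10 lower, with a median of 0.01. Nrp1, a receptor for semaphorins and VEGF, was at 77.02 and 34.6 CPM (log2 difference -1.15, edgeR adjusted p = 0.236), the epicardial growth factor gene Fgf9 at 11.5 and 7.22 CPM, Gdf10 at 0.62 and Sox9 at -0.40 (log2).

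Nppa, the atrial natriuretic peptide gene, is a textbook target of GATA4, NKX2-5 and their T-box partners, and its promoter is given as an example. T-box sites were not searched. The window covers chr4:148000472-148000771 (GRCm38.p6, plus strand), with the GATA core, the NKX2-5 core and the TATA-box motif TATAAA on either strand in capitals.
Nppa: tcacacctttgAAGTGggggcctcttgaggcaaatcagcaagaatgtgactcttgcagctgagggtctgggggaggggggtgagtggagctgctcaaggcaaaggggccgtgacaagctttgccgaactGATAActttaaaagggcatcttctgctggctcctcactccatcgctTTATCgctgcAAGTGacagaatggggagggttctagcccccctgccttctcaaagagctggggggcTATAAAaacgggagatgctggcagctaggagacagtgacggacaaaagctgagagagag
From the RefSeq start, the GATA core begins at -121 and -75, the NKX2-5 core at -239 and -65, and the motif TATAAA at -9. Whether this TATAAA match works as a TATA box was not tested. Of all windows, 13.7% hold the NKX2-5 core at least 2 times, and 13.6% hold TATAAA. Nppa was at 1036 and 2229 CPM at E16.5 and E18.5, while the means of Gata4 and Nkx2-5 were 106 and 99.3 CPM, and 163 and 124 CPM.

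The genes most like the factors over the 6 libraries were found by the root mean square difference of log2 CPM, each gene centred on its own mean, among 5707 genes of at least 5 FPKM. For Gata5 these were Sox4 (0.169) and Poli (0.184), for Nkx2-5 Stk11ip (0.0594) and Dlg5 (0.0622), and for Hand2 Thap3 (0.0169) and Tmem176a (0.0188). Nkx2-5 had 18 genes within a difference of 0.1 and Hand2 had 216, so closeness to Hand2 sets few genes apart. No gene came that close to Gata5, nor to Mef2c, Hand1 or Isl1. The limit of 0.1 was not scaled to a gene's own spread, a root mean square of 0.605 for Gata5 and 0.193 for Hand2.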

How the data were processed

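Polyadenylated heart RNA, 3 samples at each stage, went into dUTP-marked libraries with molecular identifiers, per the labels' protocols. Tools named in the submitters' processing notes, without role or order, are StringTie 1.3.4d, HISAT2 2.0.4, UMI-tools and cutadapt 1.9, with build mm9. The authors deposited estimated counts (whole numbers) and FPKM per gene, per the file headers. The labels do not say whether counting used strand or molecular identifiers. Positions are from GENCODE M21 (GRCm38), matched by Ensembl identifier (29874 of 31529), and the deposited positions, which mostly differ, are not printed. Stages were compared over all 6 libraries with edgeR 4.0.16 in R 4.3.3 (filterByExpr, TMM, quasi-likelihood test, two-sided, stage as the only term), with Benjamini-Hochberg adjustment over 19959 genes and a threshold of 0.05. The standard error (SE) is the absolute log2 difference over the square root of F, and intervals are 95%. The limma alternatives used pseudocounts of 0.5 and 0.1, and DESeq2 1.42.0 and limma 3.58.1 were used there. Shares and ratios were compared by exact permutation. Promoter windows are from RefSeq (GRCm38.p6), and motifs were searched on both strands. The GATA core was GATAA, the NKX2-5 core was AAGTG, the E-box was CANNTG, the TATA box was TATAAA, and the MEF2 site and CArG box were consensus searches.

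The named genes were the 10 factors, fixed genes of other lists, up to 4 members of each list with the smallest p (1 of them is not reported here), overlapping genes, and for the 3 factors with the smallest p the 2 most similar genes. Gene lists and members were chosen with earlier results of these data known, so they are no independent support. The longest-transcript scale and the sums with overlapping genes were added after the data were seen. The counts were whole as deposited, and nothing was rounded.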

Additional observations from a re-analysis of the deposited data

How the results depend on the processing

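Of the 10 factors, 0 passed in edgeR or limma under any scaling, filter, pseudocount, left-out library or added term that was run, and 1 (Gata5) passed with DESeq2 (edgeR, limma and DESeq2 adjusted p for Gata5 over all alternatives 0.0333 to 0.783, for Nkx2-5 0.0908 to 0.977). Signs turned in 3 cases: Gata4 with limma on log2(FPKM + 0.5) (0.0148) and on log2(FPKM + 0.1) (0.0153), and Mef2c without E16.5 replicate 3 (-0.15; 0.87 at most, without E16.5 replicate 2). The cause was not tested. On TMM-scaled CPM and per length of the longest transcript, no stage difference in a family share moved by more than 1 SD pooled over both stages. Leaving out 1 of 3 libraries cannot move a difference that far, so that limit says nothing about the left-out libraries. Some small differences changed sign or size with 1 library left out. In percentage points, the Hand1 share went from -1.67 to 0.35 without E16.5 replicate 2 (Hand2 from 1.67 to -0.35). The Gata6 share went from -0.53 to 1.58 without E16.5 replicate 1 and to 1.85 without E18.5 replicate 2. The Mef2c share went from 1.05 to -0.62 without E16.5 replicate 3, and the Gata4 share, 2.72, ranged from 0.24 to 5.66. The Gata5, Mef2a and Mef2d shares did not overlap between the stages by deposited FPKM, so leaving out 1 library could not turn their signs. Their differences had the same signs on TMM-scaled CPM and per length of the longest transcript. Genes called over the whole table, 19 higher and 11 lower, numbered 7 and 5 with total count scaling, 243 and 160 with DESeq2, 5 and 5 with limma on log2(FPKM + 0.5), 10 and 8 with limma on log2(FPKM + 0.1), and 129 and 55 with the mitochondrial share as a term. Leaving out 1 library gave 6 to 250 higher and 2 to 121 lower, the highest of both without E16.5 replicate 2. With the replicate block there were 30 and 13. Replicate numbers are not stated to mark litters. Deviations of same-numbered libraries correlated at 0.29, 0.43 and -0.03, and those of differently numbered libraries at -0.50 to 0.35. With 3 libraries a stage, these values cannot settle whether the numbers pair the samples. For the factors, the block gave log2 differences from -1.03 (Gata5, adjusted p = 0.205) to 0.60 (Mef2c) and 0 calls. Isl1 (34 to 126 a library) and Hand1 (98 to 606) had the fewest counts, and whether depth or the spread between samples sets their errors was not tested.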
